A study of Homo sapiens with 6 samples.

Results

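The 9 genes described here, ESR1, PGR, ERBB2, GATA3, FOXA1, FOXC1, SOX9, CD44 and CD24, are the receptors, transcription factors and surface proteins by which breast cancers are sorted into subtypes. They were taken by gene symbol from the 60612 genes in the deposited values, and 7 of the 9 were high enough to be among the 14770 genes tested. RNA was sequenced from MDA-MB-231, an established human cell line of triple-negative breast cancer (TNBC). The control group, Sh-NC, carries a control short hairpin RNA and is labelled wild type, and the other group, Sh-YAP1, carries a hairpin against YAP1 and is labelled a YAP1 knockdown. Both groups expressed their hairpin stably, received no other treatment and were collected on day 3, with 3 libraries each. All libraries come from 1 cell line, the labels distinguish no second hairpin against YAP1, and they do not say whether the replicates were separate cultures, so p-values measure the spread between these samples, which may be technical.

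Breast tumours are classed as luminal, HER2-enriched or basal-like, and a tumour is called triple-negative when it lacks the oestrogen receptor, the progesterone receptor and excess HER2. Luminal cells depend on a circuit in which GATA3 and FOXA1 open chromatin for the oestrogen receptor, whereas basal-like tumours tend to express FOXC1, and SOX9 marks progenitor cells of the mammary gland. A surface pattern of much CD44 and little CD24 is typical of mesenchymal-like TNBC lines. YAP1 is a transcriptional co-activator of the Hippo pathway that does not bind DNA itself and reaches its target genes through the TEAD factors.

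Because YAP1 acts through TEAD factors, the promoters of the 9 genes were searched for the core TEAD motif, GGAATG, on both strands (CATTCC on the other strand). RefSeq promoter windows (GRCh38.p14, 250 bases before to 50 bases after a start site) were held for 8 of the 9 genes, all but SOX9. Of their 22 windows, 3 held the motif (13.6%), against 14% of all 35116 windows of the same length. The sites lie in ESR1, GATA3 and CD24, and each is printed 5′ to 3′ along its gene with the motif in capitals. The ESR1 sites lie on the plus strand at chr6:151805649-151805678, with the motif starting 44 bases before a start site, and at chr6:151805722-151805751, starting 29 bases after the same start site. Both fall in exons that GENCODE 29 annotates as untranslated in ESR1. The GATA3 site lies on the plus strand upstream of the annotated gene at chr10:8045206-8045235, 115 bases before the start site. The CD24 site lies on the minus strand in an intron at chr6:106974152-106974181, 130 bases before a start site.
ESR1 site upstream: ccgaatccctgcCATTCCacgcacaaacac
ESR1 site downstream: cacatgcgagcaCATTCCttccttccttct
GATA3 site: gggggtgaaattCATTCCctcgctgtttct
CD24 site: cgctttcccctaGGAATGtcttcgcgctcc
A match of these letters is a description of the sequence and not a measured binding site.

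Expression was deposited as FPKM (fragment counts divided by transcript length and by the size of the library), 1 value per transcript with 2 decimals, and a gene's level here is the sum over its transcripts. FPKM corrects for transcript length, so levels can be set beside each other between genes. Gene positions are given on GRCh38 from GENCODE 29. No read counts come with the values, so sequencing depth is unknown. Each library had 13037 to 13219 genes at 1 FPKM or more. Differences were tested with limma on log2(FPKM + 1), a scale on which changes of weakly expressed genes appear smaller than their ratios. YAP1 itself was at 28.12, 26.24 and 22.87 FPKM in Sh-NC and at 3.35, 2.67 and 2.58 FPKM in Sh-YAP1. Its Sh-YAP1 mean was 11.1% of the Sh-NC mean, a log2 fold change of -2.79 (SE 0.12, adjusted p = 0.0018, limma with Benjamini-Hochberg adjustment).

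The Sh-NC cells had next to no ESR1 and PGR RNA. By its Sh-NC mean, CD44 stood above 97.0% of the genes tested, SOX9 above 76.2%, ERBB2 above 70.2%, GATA3 above 46.1%, FOXC1 above 31.3%, CD24 above 23.4% and FOXA1 above 9.94%. In Sh-NC the order of the mean levels was CD44 (135 FPKM), SOX9 (20.9), ERBB2 (15.9), GATA3 (6.2), FOXC1 (3.22), CD24 (2.03), FOXA1 (0.9), ESR1 and PGR. CD24 and FOXA1 were the only neighbours in this order whose libraries overlapped. Sh-YAP1 gave the same order, with no overlap between neighbours. None of the genes tested passed the threshold between the groups. Of the 7 tested, 0 had an adjusted p under 0.05, where 3.38% of all genes tested did (limma, Benjamini-Hochberg). An unadjusted p under 0.05 was reached by 2 of the 7, FOXA1 and SOX9, which is 28.6% against 21.9% of all genes tested. The same 2 genes had groups that did not overlap, 28.6% against 29.4% of all genes tested. Over the 7 genes the median log2 fold change was -0.11 against 0.0 for all genes tested, and the median change in either direction was 0.16, the same as over all genes tested.

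**Figure D1:**
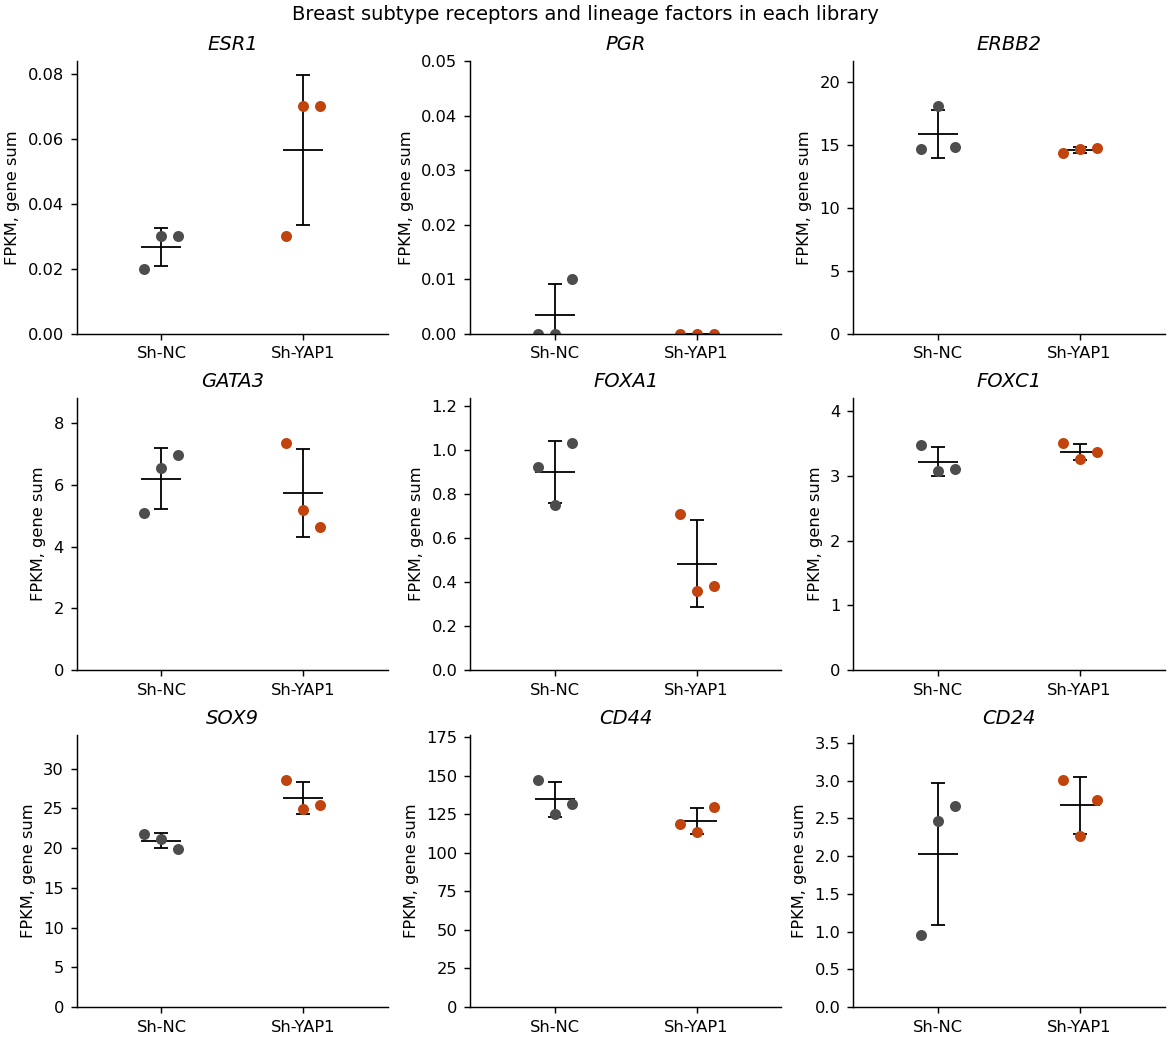
Level of each of the 9 genes in FPKM (sum over transcripts, vertical axis, own scale per gene) in the 3 Sh-NC and 3 Sh-YAP1 libraries, with the mean and SD as bars. ESR1 stays at or under 0.07 FPKM and PGR at or under 0.01 FPKM, while FOXA1 and SOX9 are the genes whose groups do not overlap.

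ESR1 (ENSG00000091831, plus strand, chr6:151656691-152129619) encodes oestrogen receptor alpha, the hormone-activated factor that drives luminal tumours. Its level was 0.02, 0.03 and 0.03 FPKM in Sh-NC, against 0.03, 0.07 and 0.07 FPKM in Sh-YAP1. All 6 libraries were far under 0.5 FPKM, the minimum for testing, and the groups touched at 0.03 FPKM. Of its 15 transcripts, 13 were listed at 0 in every library. PGR (ENSG00000082175, minus strand, chr11:101029624-101130524) encodes the progesterone receptor and is itself a classic target of the oestrogen receptor. It was listed at 0 in all libraries except Sh-NC replicate 3, where it stood at 0.01 FPKM, the smallest value that 2 decimals can show. The hormone receptors were therefore at or next to 0 in both groups, and no fold change is given for them. Since the depth is unknown, a level at which either could still be present cannot be stated. SYNE1, which overlaps ESR1 on the opposite strand, was at 3.36 to 5.03 FPKM, and whether the counting used strand is not stated in the sources used here.

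ERBB2 (ENSG00000141736, plus strand, chr17:39687914-39730426) encodes HER2, a receptor tyrosine kinase that is amplified in HER2-positive tumours. In Sh-NC it stood at 14.72, 18.08 and 14.86 FPKM, and in Sh-YAP1 at 14.34, 14.70 and 14.78 FPKM. ERBB2 was thus expressed in every library, while the groups overlapped narrowly through the 3 libraries between 14.70 and 14.78 FPKM. The Sh-NC mean was 15.9 ± 1.9 FPKM and the Sh-YAP1 mean 14.6 ± 0.234 FPKM (SD, n = 3 each). The log2 fold change was -0.11 (95% interval -0.34 to 0.12, adjusted p = 0.559, limma with Benjamini-Hochberg adjustment). Leaving out Sh-NC replicate 2, the highest library, brought it to -0.02 (adjusted p = 0.934, limma with Benjamini-Hochberg adjustment). RNA levels do not give gene copy number or protein, on which clinical HER2 status rests. EGFR, the related receptor that basal-like tumours often express, was higher than ERBB2 by 3.08 to 4.95 times in the Sh-NC libraries and by 3.3 to 4.63 times in the Sh-YAP1 libraries. MIEN1 and PGAP3, which overlap ERBB2 on the opposite strand, were at 8.19 to 12.76 and 2.07 to 5.33 FPKM.

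GATA3 (ENSG00000107485, plus strand, chr10:8045378-8075203) encodes a zinc finger factor needed for luminal differentiation. Its level was 5.09, 6.55 and 6.95 FPKM in Sh-NC, against 7.34, 5.19 and 4.64 FPKM in Sh-YAP1. The groups overlapped fully, with the highest and the lowest library both in Sh-YAP1. The Sh-NC mean was 6.2 ± 0.979 FPKM and the Sh-YAP1 mean 5.72 ± 1.43 FPKM (SD, n = 3 each), which is a log2 fold change of -0.11 (95% interval -0.53 to 0.31, adjusted p = 0.763, limma with Benjamini-Hochberg adjustment). In Sh-YAP1 replicate 1, a transcript that was listed at 0 in the other libraries held 2.74 FPKM, or 37.3% of the gene. Without it, Sh-YAP1 averaged 4.81 ± 0.33 FPKM (SD, n = 3), and Sh-YAP1 replicate 2 at 5.19 FPKM still exceeded the lowest Sh-NC library. Dropping such single-library transcripts from every gene, a setting added once the data had been seen, took the GATA3 log2 fold change to -0.3 (adjusted p = 0.249, limma with Benjamini-Hochberg adjustment). Without Sh-YAP1 replicate 3 the log2 fold change turned to 0.01.

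FOXA1 (ENSG00000129514, minus strand, chr14:37589984-37596059) encodes the pioneer factor that opens chromatin for the oestrogen receptor. It was at 0.92, 0.75 and 1.03 FPKM in Sh-NC and at 0.71, 0.36 and 0.38 FPKM in Sh-YAP1. Every Sh-YAP1 library lay below every Sh-NC library, though Sh-YAP1 replicate 1 came within 0.04 FPKM of Sh-NC replicate 2. That gap rested on a transcript that held 0.22 FPKM in Sh-NC replicate 2, or 29.3% of the gene, and 0 elsewhere. The leading transcript overlapped between the groups, at 0.50 FPKM in Sh-NC replicate 2 and 0.59 FPKM in Sh-YAP1 replicate 1. For the gene sum, the Sh-NC mean was 0.9 ± 0.141 FPKM and the Sh-YAP1 mean 0.483 ± 0.197 FPKM (SD, n = 3 each), a ratio of 0.537. On the log2(FPKM + 1) scale the difference was -0.36 (SE 0.14, 95% interval -0.69 to -0.04), and limma with Benjamini-Hochberg adjustment gave an adjusted p of 0.187. FOXA1 was weak in both groups, and a pseudocount of 0.01 in place of 1 moved the difference to -0.94. Summing only transcripts averaging 0.1 FPKM or more moved it to -0.26 (unadjusted p = 0.111, limma). With 1 library left out it lay between -0.47 and -0.30. The unadjusted p was then 0.011 without Sh-YAP1 replicate 1 and 0.102 without Sh-YAP1 replicate 2 (limma).

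FOXC1 (ENSG00000054598, plus strand, chr6:1609972-1613897) encodes a forkhead factor used as a marker of basal-like tumours. Its level was 3.48, 3.07 and 3.10 FPKM in Sh-NC, against 3.50, 3.25 and 3.36 FPKM in Sh-YAP1. The groups overlapped and the libraries lay within a narrow range. The log2 fold change was 0.05 (95% interval -0.16 to 0.26, adjusted p = 0.771, limma with Benjamini-Hochberg adjustment), and without Sh-NC replicate 1 it was 0.10.

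SOX9 (ENSG00000125398, plus strand, chr17:72121020-72126420) encodes an SRY-related factor that maintains progenitor cells in many epithelia. It was at 21.77, 21.10 and 19.90 FPKM in Sh-NC and at 28.58, 24.89 and 25.41 FPKM in Sh-YAP1. All 3 Sh-YAP1 libraries were above all Sh-NC libraries, with a gap of 3.12 FPKM, and Sh-YAP1 replicate 1 was the highest. The Sh-NC mean was 20.9 ± 0.947 FPKM and the Sh-YAP1 mean 26.3 ± 2.0 FPKM (SD, n = 3 each), a ratio of 1.26. The log2 fold change was 0.31 (SE 0.08, 95% interval 0.12 to 0.51, adjusted p = 0.0926, limma with Benjamini-Hochberg adjustment), so the difference did not pass the threshold. Permuting the 6 values exactly (two-sided) gave p = 0.1 for SOX9 and for FOXA1, the lowest value this design can reach. Over 15 alternative settings the log2 fold change of SOX9 stayed between 0.26 and 0.35 and its adjusted p between 0.0842 and 0.2 (limma, Benjamini-Hochberg). SOX9 and FOXC1 are each given as 1 transcript, so their gene sums contain no split between transcripts. The antisense SOX9-AS1 did not exceed 0.35 FPKM.

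CD44 (ENSG00000026508, plus strand, chr11:35138870-35232402) encodes the main receptor for hyaluronan. It was the most abundant of the 9, at 147.36, 125.18 and 132.04 FPKM in Sh-NC, against 118.60, 113.57 and 129.84 FPKM in Sh-YAP1. The groups overlapped through Sh-YAP1 replicate 3. The Sh-NC mean was 135 ± 11.4 FPKM and the Sh-YAP1 mean 121 ± 8.33 FPKM (SD, n = 3 each), which is a log2 fold change of -0.16 (95% interval -0.37 to 0.05, adjusted p = 0.347, limma with Benjamini-Hochberg adjustment). It was -0.09 without Sh-NC replicate 1.

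CD24 (ENSG00000272398, minus strand, chr6:106969831-106975627) encodes a small mucin-like surface protein anchored by a lipid. Its level was 0.95, 2.47 and 2.67 FPKM in Sh-NC, against 3.01, 2.26 and 2.75 FPKM in Sh-YAP1. Sh-NC replicate 1 stood apart at 0.95 FPKM, and the other 5 libraries overlapped between the groups. The Sh-NC mean was 2.03 ± 0.941 FPKM and the Sh-YAP1 mean 2.67 ± 0.381 FPKM (SD, n = 3 each). The log2 fold change was 0.33 (95% interval -0.28 to 0.93, adjusted p = 0.497, limma with Benjamini-Hochberg adjustment), and without Sh-NC replicate 1 it was 0.04. The pseudogene copies CD24P1, CD24P2 and CD24P5 were listed at 0 in all libraries. The ratio of CD44 to CD24 was 155, 50.7 and 49.5 in Sh-NC and 39.4, 50.3 and 47.2 in Sh-YAP1. CD44 exceeded CD24 by at least 39.4 times in every library, and the high value of 155 belongs to the Sh-NC library with low CD24. In RNA from whole cultures, fewer cells with a given surface pattern and less RNA per cell cannot be told apart.

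**Figure D2:**
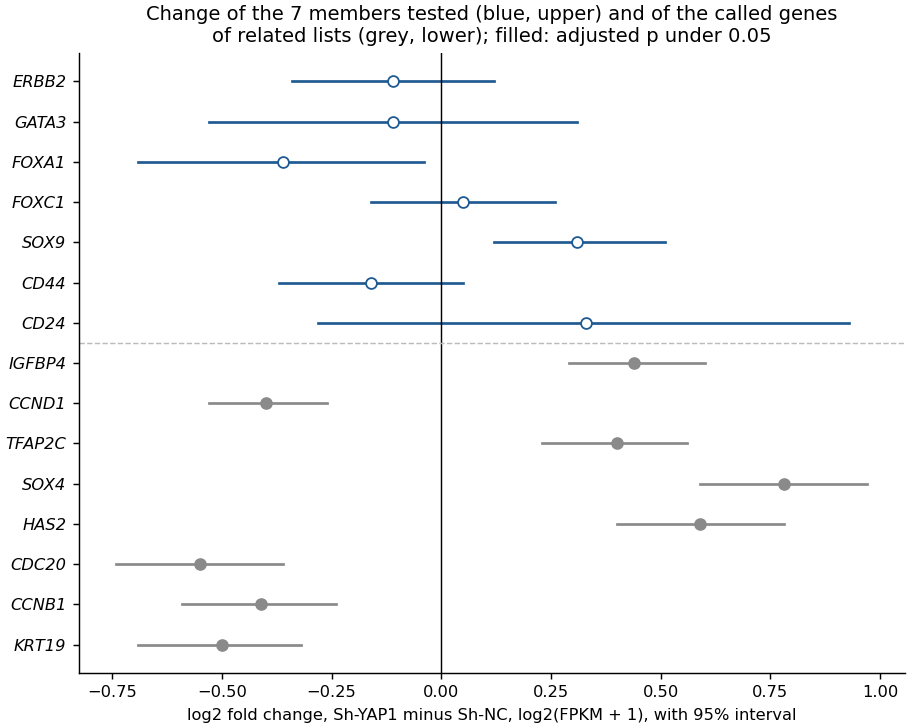
Log2 fold change on the log2(FPKM + 1) scale (horizontal axis, Sh-YAP1 minus Sh-NC) with its 95% interval for the 7 tested genes in blue and, below the dashed line in grey, the 8 genes with an adjusted p under 0.05 from the related lists. The intervals of FOXA1 (-0.69 to -0.04) and SOX9 (0.12 to 0.51) leave out 0, and no blue point is filled because none passed the adjusted threshold.

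The transcripts behind the gene sums were less even than the sums. The 9 genes have 107 transcripts in the deposited values, of which 48 had a mean of at least 0.1 FPKM and were tested. Of these, 0 had an adjusted p under 0.05, where 0.0515% of all transcripts tested did (limma, Benjamini-Hochberg), and 4 had an unadjusted p under 0.05, which 6.12% of all transcripts tested reached. Groups did not overlap for 4 of the 48, and for 13.1% of all transcripts tested. The values name the gene and not the transcript, so transcripts are numbered here by their mean over the 6 libraries.

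CD44 is known for alternative splicing of its variable exons. Its sum divided differently between the libraries here. Whether this division reflects splicing or the way reads were assigned to transcripts was not tested, and the quantification tool is not given. Transcript 1 stood at 1.25, 66.25 and 69.33 FPKM in Sh-NC and at 38.80, 25.97 and 0.97 FPKM in Sh-YAP1. Transcript 4 held 50.55 FPKM in Sh-NC replicate 1, 34.3% of the gene, and was listed at 0 in the other 5 libraries. For transcript 1 the libraries of the same group thus differed by more than the group means did, and 3 different transcripts led in the 6 libraries. Transcript 2 was at 3.53, 3.34 and 25.99 FPKM in Sh-NC and at 19.93, 33.35 and 51.79 FPKM in Sh-YAP1 (log2 fold change 2.05, adjusted p = 0.769, limma with Benjamini-Hochberg adjustment). Transcript 3 was at 37.31, 0.85 and 0.51 FPKM in Sh-NC and at 29.53, 28.64 and 27.54 FPKM in Sh-YAP1 (log2 fold change 2.64, adjusted p = 0.769, limma with Benjamini-Hochberg adjustment). Both had the higher mean in Sh-YAP1, both overlapped between the groups, and neither passed the test. Transcript 5 was at 22.63, 26.08 and 0.17 FPKM in Sh-NC and at 0.12, 0.11 and 0.06 FPKM in Sh-YAP1. Its groups did not overlap, but Sh-NC replicate 3 lay beside the Sh-YAP1 libraries, and the log2 fold change of -3.05 had an adjusted p of 0.769 (limma, Benjamini-Hochberg). Of the 27 CD44 transcripts tested, 14 were higher and 13 lower in Sh-YAP1. Without the 6 transcripts that passed 1 FPKM in exactly 1 library, CD44 was at 93.84, 124.03 and 131.14 FPKM in Sh-NC and at 115.47, 113.04 and 121.69 FPKM in Sh-YAP1. The log2 fold change then turned from -0.16 to 0.02 (adjusted p = 0.954, limma with Benjamini-Hochberg adjustment). This setting was chosen after the data had been seen, and it leaves out transcript 4, which only Sh-NC replicate 1 held. The direction of the CD44 difference, not called either way, therefore depended on which transcripts were summed.

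The ERBB2 sum varied less than its transcripts did. Transcript 3 held 11.15 FPKM in Sh-YAP1 replicate 2, 75.9% of the gene, and 6.93% to 13.1% in the other libraries. Transcript 5 held 2.88 FPKM in Sh-NC replicate 1, 19.6% of the gene, and was listed at 0 in the other Sh-NC libraries and in Sh-YAP1 replicate 2. GATA3 had 4 different leading transcripts over the 6 libraries. FOXA1 and CD24 were each led by the same transcript throughout, with 66.7% to 97.2% of FOXA1 and 63.2% or more of CD24.

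**Figure D3:**
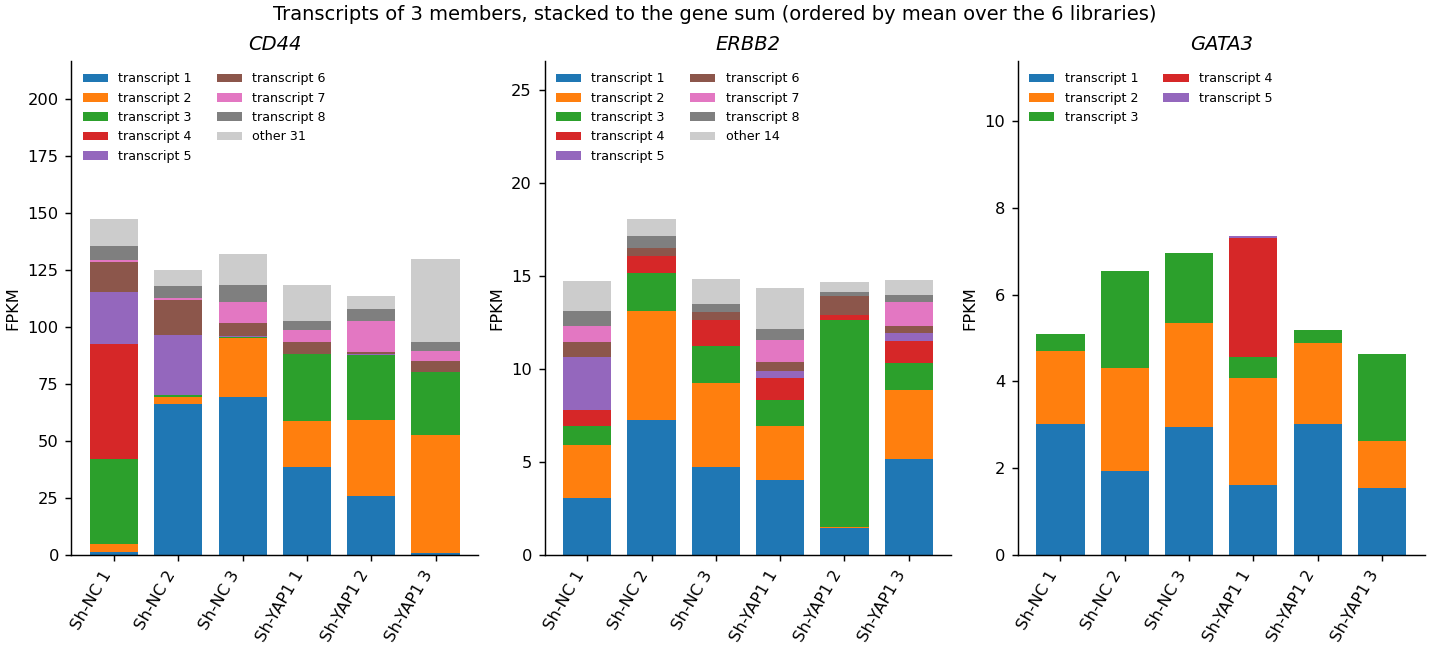
FPKM of the transcripts of CD44, ERBB2 and GATA3 (vertical axis), stacked to the gene sum in each of the 6 libraries (horizontal axis). CD44 transcript 4 appears in Sh-NC replicate 1 with 50.55 FPKM, ERBB2 transcript 3 fills 75.9% of Sh-YAP1 replicate 2, and GATA3 transcript 4 appears in Sh-YAP1 replicate 1 with 2.74 FPKM.

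Other genes of these pathways were described through 11 lists that hold 143 genes, the 9 included, of which 102 were tested and 8 had an adjusted p under 0.05 (7.84%, limma with Benjamini-Hochberg adjustment), 4 higher and 4 lower in Sh-YAP1. Of all genes tested, 1.75% were higher and 1.62% lower by the same rule. Among 12 steroid receptors and coregulators, 8 were tested and 0 passed, with a median log2 fold change of 0.11 against 0.0 over all genes. NCOR1, a corepressor of nuclear receptors, was at 45.3 ± 3.5 FPKM in Sh-NC, against 43.8 ± 2.15 FPKM in the Sh-YAP1 libraries (SD, n = 3 each). ESR2, which encodes oestrogen receptor beta, did not exceed 0.27 FPKM in any library (a gene named after its values were seen).

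Of 16 target genes of the oestrogen receptor, 13 were tested, 1 was higher and 1 lower past the threshold, and the median was 0.0. IGFBP4, which binds insulin-like growth factors, rose from 617 ± 32.9 to 839 ± 16.2 FPKM (SD, n = 3 each), and CCND1, which encodes cyclin D1, fell from 276 ± 3.53 to 209 ± 4.24 FPKM (SD, n = 3 each). The log2 fold changes were 0.44 and -0.40 (adjusted p = 0.0245 and 0.023, limma with Benjamini-Hochberg adjustment). Both genes are expressed here at high levels with ESR1 at or under 0.07 FPKM.

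Among 12 ERBB receptors and neighbours of ERBB2 on chromosome 17, 9 were tested and 0 passed, with a median of -0.11. EGFR was at 62.1 ± 9.91 FPKM in Sh-NC, against 54.7 ± 10.1 FPKM in the Sh-YAP1 libraries (SD, n = 3 each). MED1, a Mediator subunit encoded near ERBB2, was at 16.1 ± 6.45 FPKM in Sh-NC, against 19.6 ± 5.58 FPKM in the Sh-YAP1 libraries (SD, n = 3 each).

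Of 16 luminal factors, 11 were tested and 1 passed, with a median of 0.12, while TFAP2B, ELF5 and GRHL2 were listed at 0 in all libraries. TFAP2C, an AP-2 factor of the luminal programme, was at 16.00, 17.07 and 16.11 FPKM in Sh-NC and at 22.70, 21.24 and 21.77 FPKM in Sh-YAP1. The groups were well apart, and the log2 fold change was 0.40 (SE 0.07, adjusted p = 0.0354, limma with Benjamini-Hochberg adjustment). ZNF703, a luminal co-repressor, was at 10.2 ± 0.827 FPKM in Sh-NC, against 11.1 ± 0.358 FPKM in the Sh-YAP1 libraries (SD, n = 3 each).

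Of 16 basal and progenitor factors, 8 were tested and 1 passed, with a median of 0.09, and EN1 was listed at 0. SOX4, an SRY-related factor like SOX9, was at 5.71, 5.72 and 5.50 FPKM in Sh-NC and at 11.18, 10.09 and 9.93 FPKM in Sh-YAP1. It had the largest difference of the 8 genes that passed, a log2 fold change of 0.78 (SE 0.08, adjusted p = 0.0108, limma with Benjamini-Hochberg adjustment). FOXQ1, a forkhead factor, was at 39.4 ± 1.03 FPKM in Sh-NC, against 38.1 ± 2.82 FPKM in the Sh-YAP1 libraries (SD, n = 3 each). KLF5 was at 13.7 ± 0.544 and 10.4 ± 0.506 FPKM (SD, n = 3 each), with an adjusted p of 0.0587 (limma, Benjamini-Hochberg).

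Among 16 genes tied to the CD44 and CD24 state, 12 were tested and 1 passed, with a median of -0.02, and PROM1 was listed at 0. HAS2, a synthase of hyaluronan, the ligand of CD44, rose from 2.7 ± 0.127 to 4.57 ± 0.105 FPKM (SD, n = 3 each), which is a log2 fold change of 0.59 (SE 0.08, adjusted p = 0.0218, limma with Benjamini-Hochberg adjustment). MSN and EZR, which tie the tail of CD44 to actin, were at 243 ± 4.4 and 130 ± 14 FPKM in Sh-NC and at 218 ± 3.63 and 98.8 ± 13.2 FPKM in the Sh-YAP1 libraries (SD, n = 3 each), and neither passed.

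The PAM50 set, a gene panel for classing breast tumours, was read as 3 lists. Of its 21 proliferation genes all were tested and 2 passed, both lower, with a median of -0.11. CDC20, an activator of the anaphase-promoting complex, fell from 115 ± 6.47 to 78 ± 5.37 FPKM and CCNB1, which encodes cyclin B1, from 121 ± 2.13 to 90.4 ± 6.86 FPKM (SD, n = 3 each, adjusted p = 0.0245 and 0.0385, limma with Benjamini-Hochberg adjustment). UBE2C and PTTG1, the most abundant of the other proliferation genes, were at 265 ± 4.31 and 162 ± 17.4 FPKM in Sh-NC and at 228 ± 1.37 and 127 ± 6.36 FPKM in Sh-YAP1. Of 18 luminal and ERBB2 genes, 14 were tested and 0 passed, with a median of 0.01. Of 11 basal genes, 5 were tested and 0 passed, with a median of -0.09. The basal keratins KRT5, KRT14 and KRT17 did not exceed 0.39 FPKM in any library (named after their values were seen), so EGFR and FOXC1 were expressed here with basal keratins near 0. MLPH and BLVRA were the highest of the luminal and ERBB2 list in Sh-NC, and MYC came next after EGFR in the basal list. MLPH, BLVRA and MYC were at 73.1 ± 4.58, 43.2 ± 3.16 and 7.35 ± 0.62 FPKM in Sh-NC (SD, n = 3 each) and at 107 ± 27.2, 43.2 ± 1.39 and 6.92 ± 1.37 FPKM in Sh-YAP1, and none passed.

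**Figure D4:**
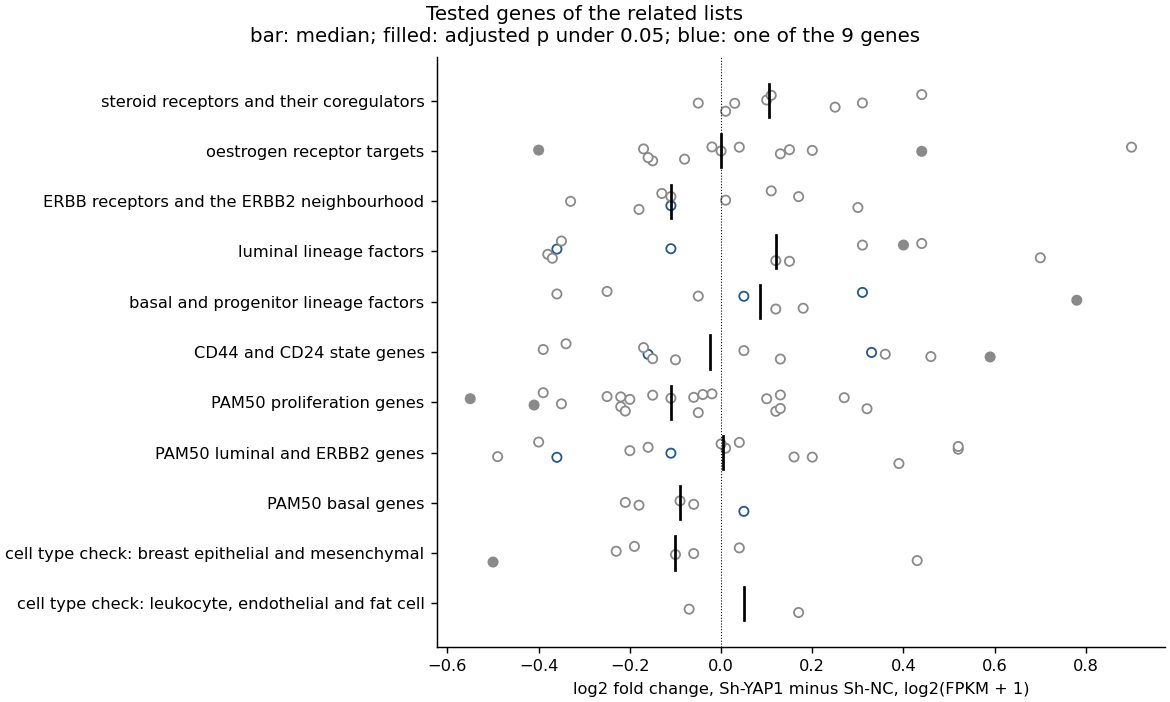
Log2 fold change (horizontal axis, Sh-YAP1 minus Sh-NC on the log2(FPKM + 1) scale) of each tested gene of the 11 related lists (vertical axis), with the median as a bar, filled points for an adjusted p under 0.05 and the 7 tested subtype genes in blue. The list medians lie between -0.11 and 0.12, and the filled points are the 8 genes that passed.

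The label of the cells as epithelial was set against its markers. KRT8, KRT18 and KRT19 were at 152 ± 19.4, 124 ± 1.68 and 177 ± 14.6 FPKM in Sh-NC (SD, n = 3 each), EPCAM was at 2.43 to 3.27 FPKM over all libraries, and CDH1, which encodes E-cadherin, did not exceed 0.49 FPKM. The mesenchymal genes VIM, FN1 and ZEB1 were at 2050 ± 351, 88.7 ± 3.02 and 10.7 ± 0.655 FPKM in Sh-NC (SD, n = 3 each). Of these 8 markers 7 were tested and 1 passed: KRT19 fell to 124 ± 3.69 FPKM in Sh-YAP1, a log2 fold change of -0.50 (adjusted p = 0.0273, limma with Benjamini-Hochberg adjustment). Of 9 markers of leukocytes, endothelium and fat cells, 2 were tested and 0 passed. CD68, a lysosomal protein of macrophages that tumour cells also express, was at 56.18 to 80.2 FPKM and PECAM1 at 0.76 to 1.7 FPKM, while CD3E, which defines T cells, was listed at 0 in all libraries and PTPRC, the pan-leukocyte marker, did not exceed 0.04 FPKM. The summed level of the 9 was 57.2 to 80.2 FPKM in Sh-NC and 66.6 to 81.8 FPKM in Sh-YAP1.

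Leaving out any 1 library ended the call of 7 of the 8 genes that passed, IGFBP4, CCND1, TFAP2C, HAS2, CDC20, CCNB1 and KRT19, with adjusted p from 0.0506 to 0.123 (limma, Benjamini-Hochberg). Their log2 fold changes stayed between 0.40 and 0.47 for IGFBP4, -0.41 and -0.38 for CCND1, 0.37 and 0.42 for TFAP2C, 0.57 and 0.62 for HAS2, -0.60 and -0.49 for CDC20, -0.47 and -0.37 for CCNB1 and -0.55 and -0.44 for KRT19. SOX4 lost its call only without Sh-NC replicate 1, at an adjusted p that rounds to 0.05 (limma, Benjamini-Hochberg) and lies above the threshold, and its log2 fold change stayed between 0.73 and 0.81. Without the filter on weak genes IGFBP4, TFAP2C, HAS2, CCNB1 and KRT19 also lost the call, with adjusted p of 0.0972, 0.0521, 0.0563, 0.0727 and 0.0575 (limma, Benjamini-Hochberg). Without the mean-variance trend TFAP2C and CCNB1 lost it, with adjusted p of 0.0504 and 0.0619 (limma, Benjamini-Hochberg).

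For the 6 genes averaging 1 FPKM or more, the tested genes with the most similar course over the 6 libraries were found among 13098 others by Pearson correlation of log2(FPKM + 1). The libraries fall into 2 groups and share their scaling, so these values describe likeness and were not tested. SOX9 was followed most closely by ITGA10 (r = 0.9995), DPH3 (0.9953) and TRIB2 (0.9941), and 142 genes reached an r of 0.95 with it. ITGA10, an integrin subunit, was at 7.01, 6.41 and 5.45 FPKM in Sh-NC and at 15.69, 10.79 and 11.19 FPKM in Sh-YAP1. CD44 was most like CLNS1A (0.9882), SIPA1L2 (0.9853) and SUN1 (0.9823), and FOXC1 most like TMEM150A (0.9939) and HBS1L (0.9742). GATA3 was most like OGFOD3 (0.9888) and the unnamed genes ENSG00000267059 (0.9904) and ENSG00000223861 (0.9885). ERBB2 was most like SRF (0.9916), UBOX5 (0.989) and CFL1 (0.9854), which rested on its high value in Sh-NC replicate 2, without which the r fell to 0.557, 0.696 and 0.057. Among the genes most like CD24 were SH3GLB1 (0.9894) and SAP30-DT (0.9871), and without Sh-NC replicate 1 these fell to 0.841 and 0.835.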

How the data were processed

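The authors deposited FPKM values, 1 per transcript and library. Each library lists 229420 transcripts, belonging to 60612 genes, with 2 decimals. The submitters' processing notes name HISAT2 2.0, Bowtie 0.12.2 and the build hg19, with no role given. The quantification tool, its annotation, the strand setting and filters are not given in the sources used here, and the RNA-sequencing methods of the paper cite another data series. Symbols were found for 60401 genes, and 58394 were in GENCODE release 29, whose GRCh38 coordinates are printed.

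Transcripts sharing a gene identifier were summed. The filter asked for a mean over the 6 libraries of 0.5 FPKM or more per gene (14770 kept) and 0.1 FPKM or more per transcript (77655 kept). Values were compared as log2(FPKM + 1) with limma 3.58.1 in R 4.3.3 (lmFit, then eBayes with trend), with the group as the single term, and p-values were adjusted by Benjamini-Hochberg across everything tested. Models of counts were not used, since no counts were given. Single genes were also compared by exact two-sided permutation (smallest p 0.1). Python 3.11.15 (pandas 2.3.3, scipy 1.17.1, matplotlib 3.10.9) made tables and figures. The main fit was first tested on simulated data, for genes and for transcripts, and the alternative fits were not.

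The genes and lists were chosen with earlier results of these data known. Beside the 9 genes and YAP1, the text names in each list up to 4 genes past the threshold with the largest change and a mean of 1 FPKM or more, the 2 most abundant in Sh-NC, the cell type markers and, per gene, its 3 most similar genes. A few genes that this rule takes are not reported here. Alternatives covered the pseudocount (0.1, 0.01), quantile normalization, median centring, no trend, no filter, a minimum of 1 FPKM, replicate numbers as blocks, each library left out, and sums over transcripts averaging 0.1 FPKM or more. Sums without transcripts that passed 1 FPKM in exactly 1 library were chosen after seeing the data.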

Additional observations from a re-analysis of the deposited data

How the results depend on the processing

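None of the 9 genes was called under any of the 16 alternatives in which it was tested (all 9 without a filter, 6 with a minimum of 1 FPKM, which leaves out FOXA1, and 7 in the others). Over all genes, 499 were called, and 232 without a filter, 346 without transcripts that passed 1 FPKM in exactly 1 library, and 78 to 171 with 1 library left out (78 without Sh-NC replicate 1, 171 without Sh-NC replicate 3). Transcripts called numbered 40, and 75 with a pseudocount of 0.1, 62 with a mean of at least 0.5 FPKM per transcript and 16 to 36 with 1 library left out. With a replicate block, 1 gene and 0 transcripts were called (limma, Benjamini-Hochberg), 2779 genes had an unadjusted p under 0.05, and all 8 list genes lost their call. Libraries sharing a number deviated from their groups with correlations across genes of -0.028, 0.062 and 0.004, so no strong shared deviation was seen. Whether libraries with the same number were prepared together is not stated, and correlations this weak cannot settle it.

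Log2 fold changes that turned were CD44 (0.02 without transcripts that passed 1 FPKM in exactly 1 library), BLVRA (-0.01 with median centring) and, over the 6 fits with 1 library left out, GATA3 (-0.28 to 0.01), NCOR1 (-0.11 to 0.0), BLVRA (-0.06 to 0.04, with -0.02 between), MYC (-0.19 to 0.06), VIM (-0.21 to 0.03) and PECAM1 (-0.26 to 0.07, with 0.0 and 0.04 between). The cause was not tested. For single genes, 442 other values kept their direction and side of the threshold, and 58 kept their direction but lost the call. YAP1 was called in all 16 alternatives and was the 1 gene called with the block. Unknown depth and 3 libraries per group limit what could be detected in weak genes such as FOXA1 and CD24.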

Other observations

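Several genes of the related lists had groups that did not overlap without passing the adjusted threshold, and 2 of them were chosen here after their values were seen. Over all genes tested, whether they passed or not, groups did not overlap for 29.4%. CA12, a membrane carbonic anhydrase and target of the oestrogen receptor, was at 9.87, 12.52 and 7.75 FPKM in Sh-NC and at 21.04, 14.90 and 22.62 FPKM in Sh-YAP1. Its log2 fold change of 0.90 (SE 0.21, adjusted p = 0.073, limma with Benjamini-Hochberg adjustment) was the largest of the 102 list genes tested. NR3C1, which encodes the glucocorticoid receptor, was at 18.34, 18.75 and 20.02 FPKM in Sh-NC and at 25.12, 22.69 and 23.67 FPKM in Sh-YAP1 (log2 fold change 0.31, adjusted p = 0.0798, limma with Benjamini-Hochberg adjustment). It stood far above ESR1, ESR2 and PGR, which each stayed at or under 0.27 FPKM.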
